A study of Mus musculus with 4 samples.

Results

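Interferon-stimulated antiviral genes are the genes that a cell switches on when it senses a virus or an interferon. The set described here holds 39 genes, taken by symbol as interferon signalling factors and antiviral effectors, with antigen presentation and chemokine genes left out. All 39 symbols were found among the 21881 gene symbols of the deposited table. They were read in 4 mRNA libraries of mesenchymal stem cell lines, fibroblast-like cells of adult C57BL/6 mouse bone marrow that were immortalised and grown from single cells. Clone 6 and clone 12 are independent lines, both Dicer f/f with Dicer intact, and each was infected with a puromycin-resistant pMMP-puro retrovirus that was empty (vector, 2 libraries) or carried Flag-HA-NR6A1 (NR6A1, 2 libraries). NR6A1, also called GCNF, is a DNA-binding nuclear receptor without a known ligand that silences pluripotency genes in early development. All 4 libraries therefore come from infected cells, each clone is 1 line, and each combination of clone and virus has 1 library.

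In textbook terms, pattern sensors such as RIG-I and MDA5 detect foreign or misplaced nucleic acid and induce interferon beta. Interferon acts on its receptor, and Janus kinases then activate transcription factors, among them STAT2, which acts with IRF9 in a complex called ISGF3. ISGF3 binds the interferon-stimulated response element (ISRE) in promoters, while interferon gamma acts mainly through the gamma-activated site (GAS). Fibroblasts are a classical source of interferon beta and carry the receptor for it. Many of the factors that carry the signal, such as IRF7, IRF9 and STAT2, are themselves induced, so the set holds both the machinery and its output.

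The promoters of some of these genes show the sequence that the name of the response element refers to. RefSeq promoter windows of build GRCm38.p6, from 250 bases before to 50 bases after the gene's start, were matched by symbol for 30 of the 39 genes. Usp18, Oas2, Dhx58, Zbp1, Mx1, Mx2, Parp9, Parp14 and Rtp4 were not matched. The letters TTTCNNTTTC, the core of the ISRE, were searched on both strands and were found for 14 of the 30 genes (46.7%), against 1079 of 27025 genes (3.99%) with a window in the table. The letters TTCNNNGAA, the core of the GAS, were found for 7 of the 30 (23.3%) against 2582 of all (9.55%). In 1 gene, Bst2, the matches of both motifs overlap. A match is a description of letters and no evidence of binding, and a window without them says nothing of the factor. The stretches below show the 6 genes with 2 or more ISRE matches before the start, then Gbp2 with 1 match and, for contrast, Irf1 with its GAS. Capitals mark the ISRE letters (for Irf1, the GAS letters), and each is written 5′ to 3′ on the strand of the gene. They lie at chr4:156200855-156200916 (minus strand, Isg15), chr19:34640765-34640833 (plus, Ifit1), chr19:34583353-34583436 (plus, Ifit3), chr5:120907526-120907565 (minus, Oas1a), chr8:71537567-71537622 (minus, Bst2), chr3:142559979-142560034 (plus, Gbp3), chr3:142620584-142620633 (plus, Gbp2) and chr11:53769904-53769952 (plus, Irf1), all upstream of the start.
Isg15: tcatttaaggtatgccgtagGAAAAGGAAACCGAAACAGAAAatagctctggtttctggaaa
Ifit1: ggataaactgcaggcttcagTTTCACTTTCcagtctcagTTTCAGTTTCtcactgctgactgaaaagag
Ifit3: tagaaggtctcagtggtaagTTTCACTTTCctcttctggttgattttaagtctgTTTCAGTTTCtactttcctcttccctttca
Oas1a: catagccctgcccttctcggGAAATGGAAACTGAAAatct
Bst2: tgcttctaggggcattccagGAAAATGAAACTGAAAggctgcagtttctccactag
Gbp3: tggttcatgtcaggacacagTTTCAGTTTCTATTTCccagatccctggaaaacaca
Gbp2: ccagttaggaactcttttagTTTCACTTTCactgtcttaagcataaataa
Irf1: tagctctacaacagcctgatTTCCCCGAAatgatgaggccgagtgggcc

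Isg15 carried 3 overlapping matches, and Ifit1, Ifit3, Oas1a, Bst2, Gbp3 and Trim21 carried 2 each. The 14 genes with ISRE letters had a median log2 difference of 2.80 between clone 12 and clone 6 in the vector libraries, and the 16 matched genes without them 1.77. For the change with NR6A1 in clone 6 the medians were 0.84 (range 0.29 to 1.76) and 0.68 (0.09 to 1.73). The ranges overlap, and the difference between both groups of genes was not tested.

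**Figure D1:**
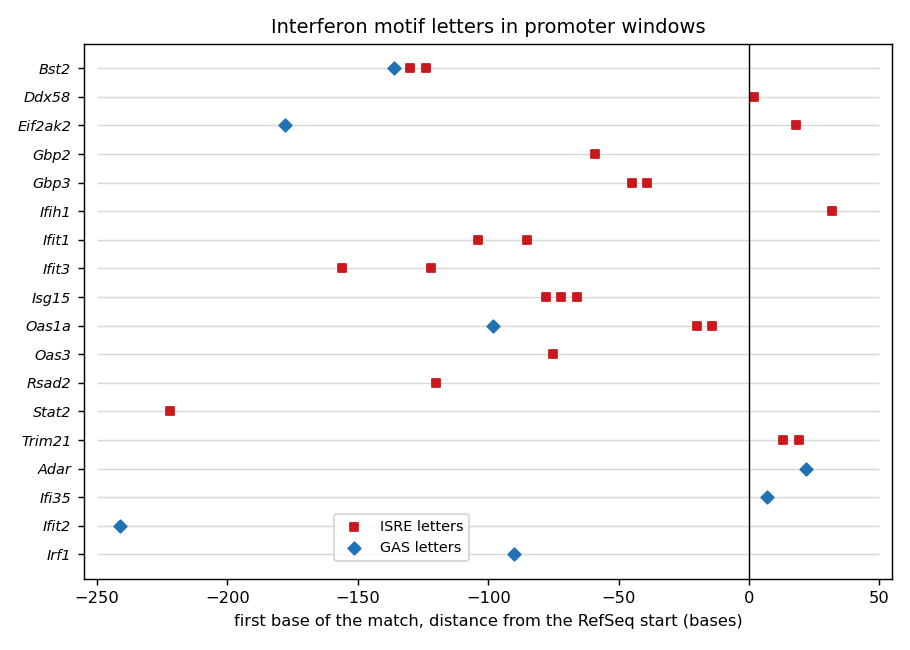
Positions of ISRE letters (red squares) and GAS letters (blue diamonds) in the promoter windows of the genes that hold either motif; the horizontal axis is the distance in bases of the first base of the match from the RefSeq start. The ISRE matches of Isg15, Ifit1, Ifit3, Oas1a, Oas3, Bst2, Gbp2, Gbp3, Rsad2 and Stat2 lie before the start, and those of Ddx58, Eif2ak2, Ifih1 and Trim21 after it.

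Values are FPKM (fragments per kilobase of transcript, scaled to the mapped fragments of each library), which compare genes per length. The depth, inferred from the steps between low values, was 20.5 to 24.4 M reads per library, and 1 FPKM was worth about 36.5 to 43.4 reads for a 2000-base transcript. Nr6a1 was at 4.18 and 2.80 FPKM with vector in clone 6 and clone 12 and at 783 and 598 FPKM with NR6A1, the direction that the labels give. Of 15 mesenchymal markers 12 were tested, with Vim at 1964 to 2404 FPKM and Pdgfrb at 43.5 to 56.3 FPKM. Of the 12, 3 were lower in clone 12 (Col1a1, Col3a1 and Pdgfra) and 1 higher (Cd44), against 10.5% and 11.5% of all genes tested. Col1a1 was at 1547 and 1422 FPKM in clone 6 and 522 and 693 in clone 12 (limma adjusted p = 0.0225). The part of this difference between the lines in the results below was not tested. The defining marker Thy1 was at 0.0297 FPKM or less, Dcn at 0.431 or less and Lum at or near 0. Of 15 markers of blood cells, 2 (Cd14 and Cd68) reached a mean of 1 FPKM, Ptprc, which marks all white blood cells, was at 0.0234 FPKM or less, and Aif1 and Cd3e were listed at 0 in every library. The summed level of these 15 markers ran from 8.37 to 10.9 FPKM over the libraries, and that of 6 endothelial markers from 0.0848 to 0.315 FPKM. In bulk RNA, fewer cells that express a gene and less RNA per cell cannot be told apart.

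The 39 genes were higher in clone 12 than in clone 6, and in clone 6 they stood higher with NR6A1 than with vector. Their FPKM values sum to 454.5 in clone 6 with vector, 853.3 in clone 6 with NR6A1, 2655 in clone 12 with vector and 2335 in clone 12 with NR6A1. A few abundant genes make up much of these sums, with Bst2 alone at 138, 259, 836 and 677 FPKM in the same order. Every one of the 39 had both clone 12 values above both clone 6 values, which held for 37.7% of the 11346 genes tested. Of the 39, 35 followed 1 rank order, from clone 6 with vector through clone 6 with NR6A1 and clone 12 with NR6A1 up to clone 12 with vector, an order that 12.4% of the genes tested followed. The 4 others (Oas1a, Adar, Ifi44 and Lgals3bp) differed only in that the NR6A1 library of clone 12 stood above its vector library. The distance between the clones was smaller with NR6A1 than with vector for all 39, and for 6834 of the 11346 genes tested. For the 35 genes in the rank order this follows from the order itself. The median log2 difference of the 39 was 2.57 with vector and 1.53 with NR6A1.

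**Figure D2:**
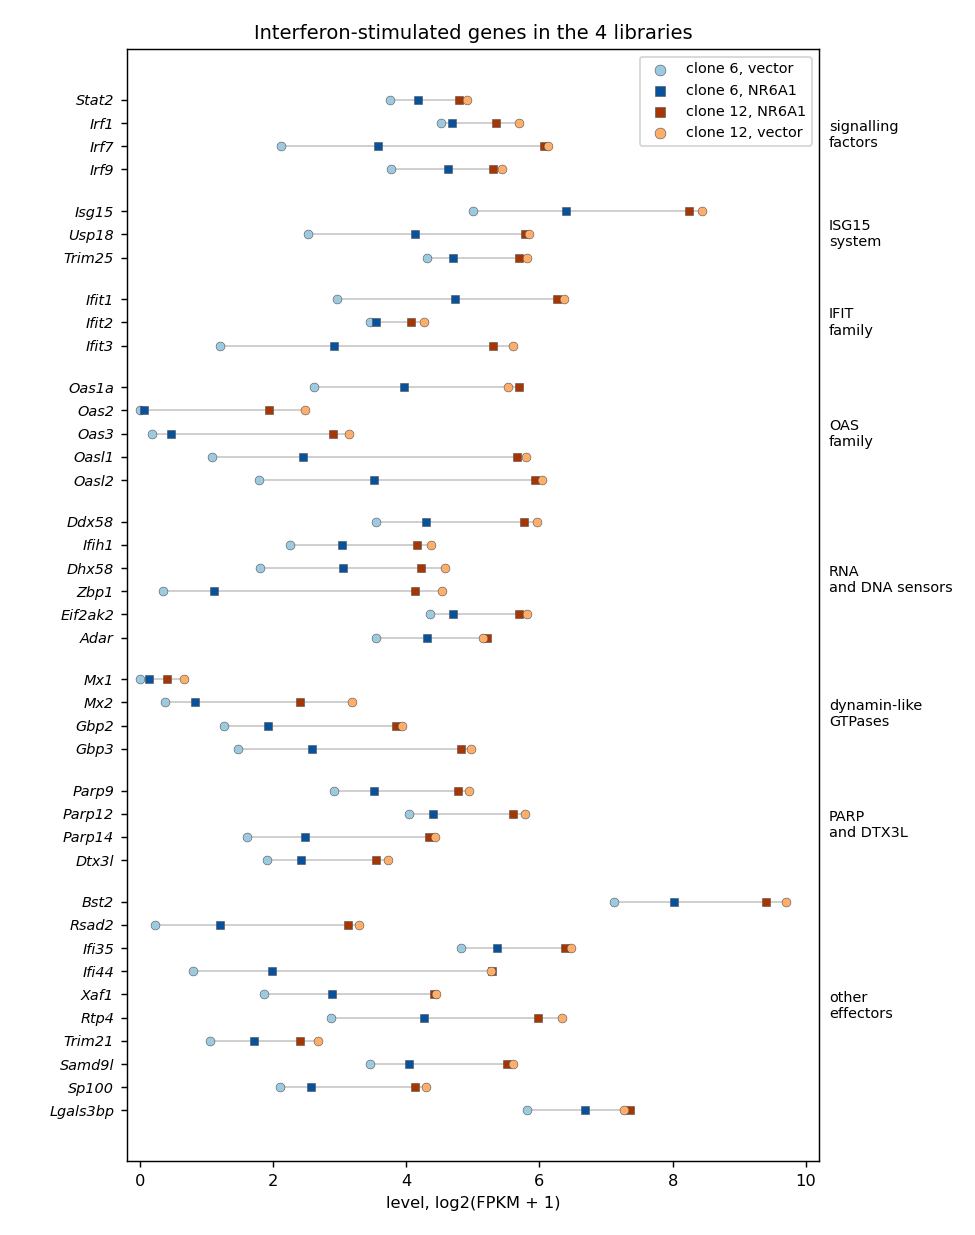
Level of each of the 39 genes in the 4 libraries, as log2(FPKM + 1) on the horizontal axis, with genes grouped by role; circles are vector and squares NR6A1, blue is clone 6 and orange to brown is clone 12, 1 point per library. In every row the blue points lie left of the orange and brown ones, and the dark blue square lies right of the light blue circle.

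The clones were compared over both viruses by limma on log2(FPKM + 1), with virus as a block and Benjamini-Hochberg adjustment at 0.05 over the 11346 genes whose mean reached 1 FPKM. Mx1 alone, with a mean of 0.254 FPKM, fell under this filter. Of the 38 genes tested, 36 passed the threshold and all 36 were higher in clone 12, against 11.5% of all genes tested that were called higher there. Their log2 differences ran from 0.67 (Ifit2) to 3.97 (Oasl1), and limma adjusted p over the 38 from 0.0142 to 0.0552. Irf9 (limma adjusted p = 0.0522) and Trim21 (limma adjusted p = 0.0552) missed the threshold. For 5 genes (Oas2, Oas3, Zbp1, Mx2 and Rsad2) the mean in clone 6 was under 1 FPKM, so they were tested only because of their level in clone 12, and the count of 36 is a description. As each clone is 1 line, these p-values measure how alike the clone difference was with both viruses, not how lines differ in general. The count depends on the fit. With a robust prior 20 passed, against 14.3% of all genes tested called higher in clone 12. When genes of any level were tested, 0 passed and limma called 0 of all 17887 genes. There, 39 of 39 had an unadjusted p under 0.05 by limma. With 1 library left out, 1 clone has 1 library, so only sizes are given. The median log2 difference of the 38 was then 1.582 to 2.425, against 2.018 with all 4 libraries.

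Among the signalling factors, Irf7, the interferon regulatory factor that amplifies interferon production, differed most between the clones. Irf7 was at 3.35 FPKM in clone 6 with vector, 10.96 in clone 6 with NR6A1, 69.1 in clone 12 with vector and 66.4 in clone 12 with NR6A1. The clone 12 value was 20.6 times the clone 6 value with vector and 6.06 times with NR6A1, and the log2 difference over both viruses was 3.25 ± 0.39 (SE, limma adjusted p = 0.0227). Irf9 and Stat2, which encode parts of ISGF3, stood closer together. Irf9 was at 12.6 and 23.7 FPKM in clone 6 and at 42.1 and 38.3 in clone 12 (vector first, then NR6A1, here and below). Stat2 was at 12.5 and 17.1 FPKM in clone 6 and 28.96 and 26.8 in clone 12, a difference of 0.88 ± 0.15 (limma adjusted p = 0.0352). Irf1, which responds mainly to interferon gamma and carries the GAS shown above, was at 22.03 and 24.8 FPKM in clone 6 and 50.5 and 39.5 in clone 12. In clone 6 its FPKM ratio of NR6A1 to vector was 1.13, the lowest among the genes with a ratio except for Ifit2 (1.07).

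The ISG15 system followed the same order of libraries. Isg15, a ubiquitin-like protein that is joined to other proteins and also secreted, was at 30.9 and 83.6 FPKM in clone 6 and 347 and 301.8 in clone 12. Usp18, the protease that removes ISG15 and dampens the interferon receptor, was at 4.77 and 16.5 FPKM in clone 6 and 56.4 and 54.2 in clone 12. With NR6A1 the clone 6 level was 2.71 times the vector level for Isg15 and 3.47 times for Usp18. The clone 12 level over the clone 6 level went from 11.2 with vector to 3.61 with NR6A1 for Isg15, and from 11.8 to 3.27 for Usp18. Trim25, a ubiquitin ligase of the RIG-I pathway, was nearer between clones, at 18.9 and 25.1 FPKM against 55.4 and 50.6.

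The IFIT proteins bind foreign RNA ends and block its translation. Ifit1 was at 6.81 and 25.4 FPKM in clone 6 and 81.95 and 76.2 in clone 12, and Ifit3 at 1.29 and 6.52 against 47.7 and 38.6. With NR6A1 in clone 6, the log2(FPKM + 1) change was 1.76 for Ifit1 and 1.72 for Ifit3, and the FPKM ratio was 3.74 and 5.05. Ifit2, which lies in the same gene cluster, was at 9.99 and 10.7 FPKM in clone 6 and 18.2 and 15.9 in clone 12. Its difference between clones, 0.67 ± 0.11, was the smallest of the 38 but passed the threshold (limma adjusted p = 0.0305). Ifit1 and Ifit3 have close copies in the mouse genome, so how reads were shared among them is uncertain.

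The OAS enzymes make short adenylate chains that activate RNase L, and the OAS-like genes Oasl1 and Oasl2 belong to the same family. Oasl1 was at 1.11 and 4.47 FPKM in clone 6 and at 54.6 and 49.9 in clone 12, and Oasl2 at 2.45 and 10.42 against 64.7 and 60.2. Oas1a was at 5.14 and 14.6 FPKM in clone 6 and at 45.3 and 50.7 in clone 12, and it has near-identical neighbours that could share its reads. In clone 6 these 3 genes stood 2.85 to 4.26 times higher with NR6A1. Oas3 was at 0.127 and 0.377 FPKM in clone 6 against 7.83 and 6.47 in clone 12, a log2 difference of 2.70 ± 0.20 (limma adjusted p = 0.0142) in a gene that was tested only because of its level in clone 12. Oas2 was listed at 0 in clone 6 with vector and was at 0.0387 FPKM with NR6A1, against 4.57 and 2.83 in clone 12. At about 3.1 inferred reads, the clone 6 value with NR6A1 is too low to show a change.

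All 6 genes grouped as nucleic acid sensors, with the editing enzyme Adar among them, passed the clone comparison, against 11.5% of all genes tested. Of these, Zbp1 was tested only because of its level in clone 12. Ddx58, which encodes RIG-I, was at 10.7 and 18.7 FPKM in clone 6 and 61.1 and 53.7 in clone 12. Ifih1, which encodes MDA5, was at 3.78 and 7.15 against 19.7 and 16.8, and Dhx58, which encodes the related LGP2, at 2.49 and 7.29 against 22.9 and 17.7. The 3 RIG-I-like genes thus stood 1.74 to 2.93 times higher with NR6A1 in clone 6 and at 0.776 to 0.879 times the vector level in clone 12. Zbp1, a sensor of Z-form nucleic acid that can start necroptosis, was at 0.270 and 1.15 FPKM in clone 6 and at 22.2 and 16.5 in clone 12, a ratio between clones of 82.0 with vector and 14.4 with NR6A1. Eif2ak2, the kinase PKR that stops translation, was at 19.4 and 25.1 FPKM against 55.2 and 50.5. Adar, the RNA-editing enzyme that marks the cell's own double-stranded RNA, was at 10.7 and 18.9 against 34.4 and 35.9.

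Of the dynamin-like GTPases, the myxovirus resistance genes were at the low end of the set. Mx1 was at 0.00411 and 0.102 FPKM in clone 6 and at 0.586 and 0.323 in clone 12, which is about 0.3, 6.8, 42.6 and 21.0 inferred reads. The Mx1 allele of C57BL/6 mice is known to lack exons and to make no working protein. Mx2 was at 0.301 and 0.777 FPKM in clone 6 and at 8.06 and 4.32 in clone 12. It was the 1 gene of the 39 that stood at least 1.5-fold lower with NR6A1 in clone 12 (log2 change -0.77), against 2.5% of all genes tested. The guanylate-binding protein genes, which attack vacuoles of microbes, were higher. Gbp2 was at 1.39 and 2.80 FPKM in clone 6 and 14.3 and 13.3 in clone 12, and Gbp3 at 1.76 and 4.96 against 30.4 and 27.4.

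PARP9 and DTX3L form a complex that joins ADP-ribosylation to ubiquitin signalling, and PARP12 and PARP14 are ADP-ribosyltransferases. Parp9 was at 6.51 and 10.5 FPKM in clone 6 and 29.7 and 26.3 in clone 12, and Dtx3l at 2.75 and 4.33 against 12.2 and 10.7. Parp14 was at 2.06 and 4.55 FPKM against 20.5 and 19.3, and Parp12 at 15.5 and 20.2 against 54.0 and 47.6. All 4 passed the clone comparison, against 11.5% of all genes tested that were called higher in clone 12. Their log2 differences ran from 1.47 (Parp12 and Dtx3l) to 2.35 (Parp14), and their changes with NR6A1 in clone 6 from 0.36 to 0.86.

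The most abundant gene of the set was Bst2, which encodes tetherin, a membrane protein that holds budding virus on the cell. Bst2 was at 138 and 259 FPKM in clone 6 and at 836 and 677 in clone 12 (1.99 ± 0.31, limma adjusted p = 0.0307). Lgals3bp, a secreted glycoprotein, was at 55.1 and 101.8 FPKM against 152.8 and 163.0, and Ifi35 at 27.3 and 40.1 against 87.9 and 82.4. Rsad2, which encodes the antiviral enzyme viperin, was at 0.172 and 1.29 FPKM in clone 6 and at 8.78 and 7.73 in clone 12. Its ratio between clones was 51.1 with vector and 5.98 with NR6A1. Ifi44 was at 0.728 and 2.95 FPKM in clone 6 and at 37.7 and 38.1 in clone 12. Rtp4 was at 6.31 and 18.3 against 79.9 and 62.1, and Xaf1, which promotes cell death, at 2.65 and 6.39 against 20.7 and 20.3. The remaining effectors were Samd9l, Sp100, a nuclear body protein gene, and Trim21, a cytosolic antibody receptor gene. Their vector levels in clone 6 ran from 1.08 FPKM (Trim21) to 9.92 FPKM (Samd9l), and those in clone 12 from 5.41 to 47.6 FPKM.

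The second comparison asked how these genes differ when NR6A1 is raised. In clone 6 all 39 stood higher with NR6A1, with a median log2 change of 0.77 against 0.01 over all genes tested. Of the 39, 25 were at least 1.5-fold higher and 13 at least 2-fold higher on the log2(FPKM + 1) scale, against 3.05% and 1.14% of all genes tested. In clone 12, 35 of the 39 stood lower with NR6A1, with a median log2 change of -0.16 against -0.01 over all genes tested. Higher in clone 6 and lower in clone 12 were 35 genes, a pattern that 23.1% of the genes tested had. These are differences of 1 library from 1 library, with no replicate within a clone.

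**Figure D3:**
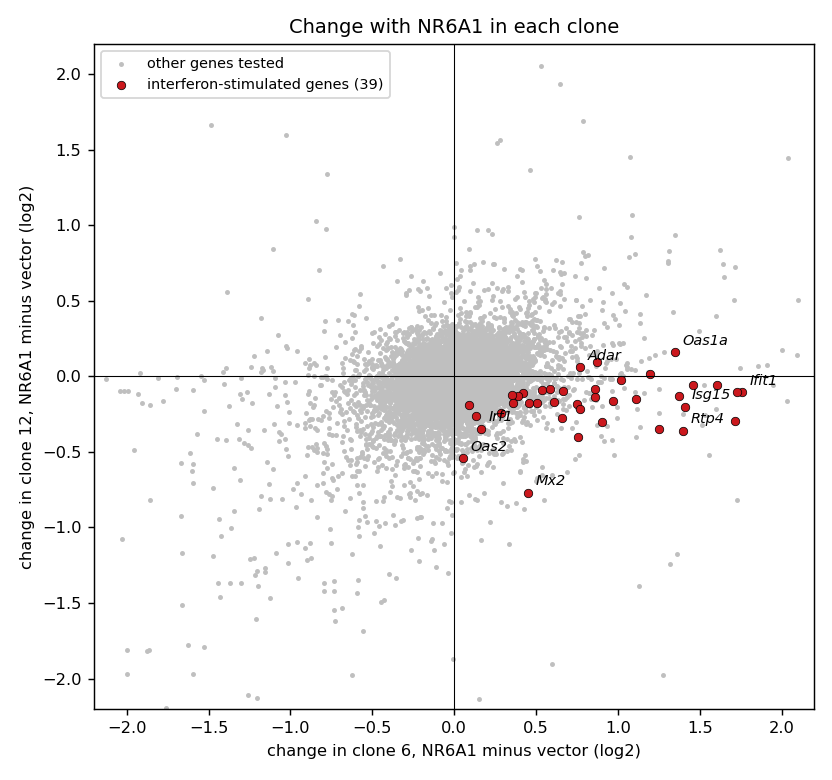
Change with NR6A1 in clone 6 (horizontal axis) and in clone 12 (vertical axis), NR6A1 minus vector on the log2(FPKM + 1) scale, 1 point per gene; red points are the 39 antiviral genes, grey points the other genes tested without short RNA genes, of which 34 lie outside the axes. The red points lie right of 0, from 0.055 to 1.76, and between -0.77 and 0.16 on the vertical axis.

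Over both clones no gene of the set passed. The limma fit with clone as a block called 0 of the 38, against 0.0353% of all genes tested, and 0 of the 38 had an unadjusted p under 0.05 against 962 of the 11346. The log2 changes over both clones ran from -0.24 (Oas2) to 0.83 (Ifit1) with a median of 0.29, and limma adjusted p from 0.633 to 0.983. Oas1a (0.76 ± 0.31 SE, limma adjusted p = 0.633) and Lgals3bp (0.48 ± 0.21, limma adjusted p = 0.637), which were higher with NR6A1 in both clones, had the lowest. By construction, the fit takes its error from how far the change in clone 6 lies from that in clone 12. That difference itself, a median of 0.77 against -0.16, takes up all 4 libraries and leaves no degree of freedom, so it was not tested. Single libraries were also left out, in a fit without a term for clone. The virus groups then differ in their share of each clone. The change therefore takes in the clone difference, and these values cannot show how stable it is. The median of the 38 genes was -0.90 without the clone 6 vector library and -0.40 without the clone 12 NR6A1 library. It was 1.01 without the clone 6 NR6A1 library and 1.497 without the clone 12 vector library.

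Upstream of these genes, none of 19 interferon ligand genes reached a mean of 1 FPKM. Ifnz, of the interferon zeta (limitin) family, came closest, at 0.921 and 1.11 FPKM in clone 6 and 1.09 and 0.867 in clone 12. Ifnb1, the gene of interferon beta, was listed at 0 in both clone 6 libraries and was at 0.53 FPKM in clone 12 with vector and 0.17 with NR6A1, about 6.5 and 1.9 inferred reads. Ifna4, an interferon alpha gene, was listed at 0 in clone 6 and stood at about 1.5 and 0.8 inferred reads in clone 12. At a few reads each, no difference of Ifnb1 or Ifna4 between clones or viruses can be shown at this depth.

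Of the receptors and kinases of the pathway, 14 were tested. In clone 12, 2 were higher, among them Stat3, and 1 was lower (Ifngr1), shares near those of all genes tested (11.5% higher and 10.5% lower), and none passed for NR6A1. Stat3, a transcription factor of cytokine receptors, was at 24.4 and 25.2 FPKM in clone 6 and 31.4 and 36.2 in clone 12 (limma adjusted p = 0.0399). The kinase gene Jak1 was at 61.1 and 52.8 against 73.7 and 61.3 FPKM, the phosphatase gene Ptpn11 at 74.4 and 83.8 against 72.5 and 77.9, and the gamma receptor gene Ifngr2 at 48.3 and 40.3 against 42.7 and 41.6. Over all 16 receptor and kinase genes in the table, the median log2 difference between clones was 0.21 with vector. Of the 16, 0 were at least 1.5-fold higher with NR6A1 in clone 6, a count near the background (3.05% of all genes tested).

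Of the pathway that induces interferon, 20 genes were tested, of which 6 were higher and 1 lower in clone 12 (11.5% and 10.5% of all genes tested). Among the 6 were the adaptor gene Myd88 (18.9 and 21.9 FPKM in clone 6, 33.4 and 31.2 in clone 12), the NF-kB subunit gene Nfkb1 (25.4 and 27.99 against 43.4 and 42.0) and Trex1, a nuclease that degrades stray DNA (6.56 and 9.63 against 17.7 and 15.8). The lower one was Ticam1, an adaptor of Toll-like receptor 3. The kinase gene Tbk1, which activates IRF3, was at 29.9 and 29.5 against 24.95 and 26.3 FPKM, and none of the 20 passed for NR6A1. Tmem173, which encodes the DNA pathway adaptor STING, was picked after its values were seen. It was the 1 gene of this list at least 1.5-fold higher with NR6A1 in clone 6, a count near the background (3.05% of all genes tested). Its levels were 8.70 and 17.2 FPKM in clone 6 and 20.7 and 24.1 in clone 12.

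Other interferon-induced genes outside the set gave these counts. Of 39 tested, 31 were higher and 1 lower (Ifi30) in clone 12, against 11.5% and 10.5% of all genes tested. Of the 31, 3 (Ddx60, Trim30d and Sp110) had a clone 6 mean under 1 FPKM and were tested only because of clone 12. In clone 6 the median log2 change with NR6A1 was 0.40 over the 44 in the table, 15 of them at least 1.5-fold higher (3.05% of all genes tested). Ifitm3, which blocks virus entry, was at 238 and 513 FPKM in clone 6 and 802 and 826 in clone 12, but missed the threshold (limma adjusted p = 0.0537). Apol9a was at 16.4 and 44.8 against 209.9 and 176.7 FPKM, and Ifitm2, a neighbour of Ifitm3, at 269 and 319 against 269 and 288. Of 7 tested GTPase genes of the interferon gamma response, 6 were higher in clone 12 (11.5% of all genes tested), of which Iigp1 had a clone 6 mean under 1 FPKM and was tested only because of clone 12. Igtp was at 3.01 and 6.47 FPKM in clone 6 and 28.6 and 21.6 in clone 12, Irgm1 at 38.2 and 41.4 against 65.5 and 62.2. Ciita and Irf8, of antigen presenting cells, did not exceed 0.0205 FPKM in any library.

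Class I presentation genes, which interferon also induces in many cells, gave other values side by side. Of 20 tested, 11 were higher and 1 lower in clone 12 (11.5% and 10.5% of all genes tested), with a median log2 difference of 0.46 with vector against 2.57 for the antiviral genes. In clone 6, 0 of the 20 were at least 1.5-fold higher with NR6A1 and 1 was at least 1.5-fold lower (3.05% and 3.39% of all genes tested, so both counts are near the background), with a median of -0.04. H2-K1, a classical class I heavy chain gene, was at 488 and 376 FPKM in clone 6 and 667 and 688 in clone 12. The difference between both lists was not tested.

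**Figure D4:**
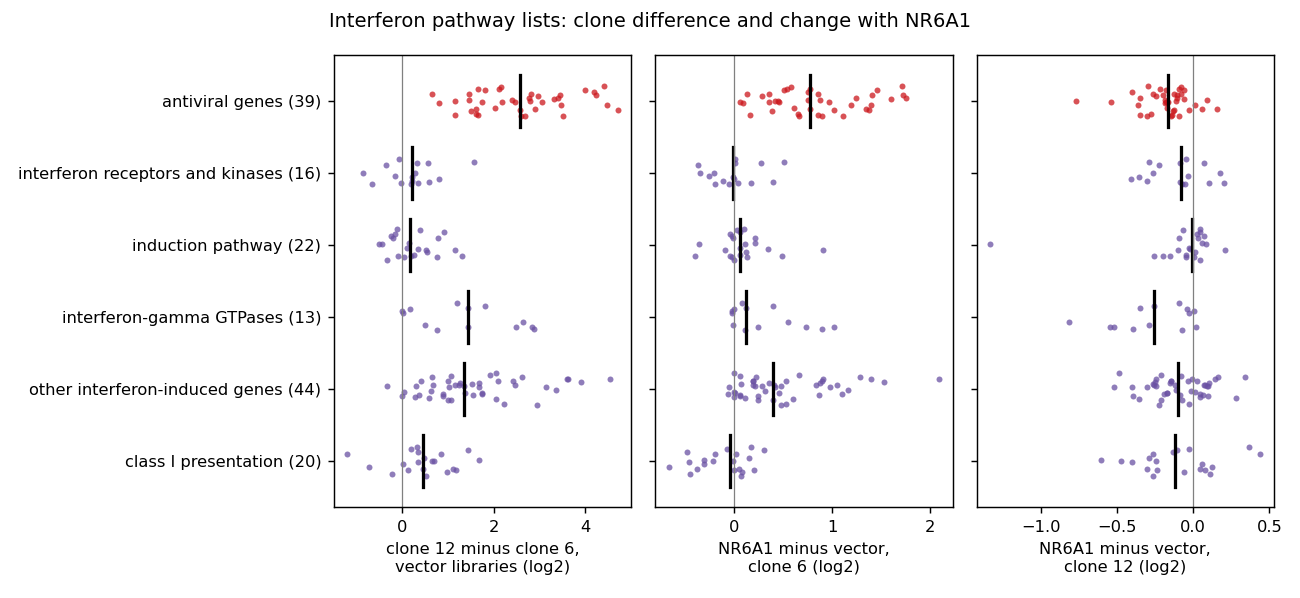
Log2 difference between clone 12 and clone 6 in the vector libraries (left), and change with NR6A1 in clone 6 (middle) and clone 12 (right), for each gene of the antiviral set (red) and 5 other interferon lists (purple); a black bar is the median of a list and the number in brackets its genes in the table. The medians in the left panel run from 0.17 (induction pathway) to 2.57 (antiviral genes), and the left and middle panels share the vector library of clone 6.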

How the data were processed

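The values are gene-level FPKM as deposited by the authors for 4 mRNA libraries. TopHat 1.2.0, Cufflinks 1.0.3 and build mm9 are named per the submitters' processing notes. The sources used here state neither annotation nor strand, so overlapping antisense genes cannot be told apart. Depth was inferred from steps in low FPKM values, of which 48.0% to 52.6% lay within 0.1 of whole reads (20% by chance), so no count test was run.

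The test was limma 3.58.1 (R 4.3.3, trend) on log2(FPKM + 1), which understates changes of low genes. Genes averaging 1 FPKM or more entered, with terms for virus and clone, 1 residual and 2.9 prior degrees of freedom, and Benjamini-Hochberg adjustment at 0.05. Fold thresholds (1.5 and 2) use the same scale. Clone pairs the libraries, since per the labels' protocols each line received both viruses; the clone difference with vector and with NR6A1 correlated at r = 0.628 across genes, which are not independent (0.874 without short RNA genes). Separate cultures are not stated, so p-values measure the spread between these libraries, which may be technical.

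All 39 genes are named. Of the other lists, the 4 of highest mean and up to 6 that passed were eligible, as were ligands with few or no reads. Cell type markers, Ciita, Irf8, Ddx60, Trim30d and Sp110 were named outside this rule, as were genes marked as picked after their values were seen. The genes and lists were chosen with earlier results of these data known. Alternatives covered pseudocount, filter, scaling, prior, block, short RNA genes and each library left out. Promoters come from RefSeq (GRCm38.p6), matched by symbol; no coordinates were joined to mm9. The values of 1 gene of the other lists are not reported here.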

Additional observations from a re-analysis of the deposited data

Results flagged for a closer look

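The median change with NR6A1 over the 39 genes had opposite signs in the clones, 0.77 in clone 6 and -0.163 in clone 12 (log2). Of the 39, 35 were higher in clone 6 and lower in clone 12, against 23.1% of all genes tested. Oas1a, Adar, Ifi44 and Lgals3bp were higher in both clones. The changes in clone 12 were small, with 1 gene (Mx2) at least 1.5-fold lower, against 2.5% of all genes tested. Each change is 1 library against 1, and the difference between the clones was not tested.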

How the results depend on the processing

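Of the 38 genes tested, 36 were higher in clone 12. This count was 0 without a filter on low values (0 of all 17887 genes were called by limma, and the lowest adjusted p among these genes was 0.0798), 20 with a robust prior, and 0 to 33 with 1 library left out; the causes were not tested. Without the pairing by virus (no replicate block) the clone count was 32, against 9.24% of all genes tested called higher in clone 12. For NR6A1 the count was 0 with or without the block, so the block moved neither count by over 1.5 times. With short RNA genes left out, all 38 of 38 passed for clone, against 16.8% of all genes tested called higher in clone 12. For NR6A1, 0 of the 38 then passed and 52 of all genes did, against 4. The median change with NR6A1 over both clones, 0.286, ran from -0.902 to 1.497 with 1 library left out. That of Oas1a ran from -0.702 to 2.212 and that of Lgals3bp from -0.244 to 1.211. Those fits had no term for clone, so the ranges take in the clone difference and cannot show how stable the changes are. For genes near 0 between clones, the clone difference with 1 library left out ran from -0.156 to 0.014 (Ptpn11) and -0.191 to 0.062 (Ifngr2). For Rela it ran from -0.038 to 0.172 and for Ifitm2 from -0.198 to 0.048. The median change in clone 6, 0.77, was 0.471 with a pseudocount of 5, where 15 genes were at least 1.5-fold higher, against 29 with a pseudocount of 0.1. Under each scaling tried, 38 of 38 were higher in clone 6 with NR6A1, 34 lower in clone 12 and 38 higher in clone 12 than in clone 6. With 1 library per clone and virus, changes within a clone have no error of their own.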

Other observations

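Genes outside the interferon lists that also stood far higher in clone 12 were compared with the antiviral genes, a comparison chosen after the values were seen. Of genes with a log2 difference of at least 2 between clones in the vector libraries and without short RNA genes, 26 belong to the antiviral set and 112 to none of the lists. With NR6A1 in clone 6, 26 of the 26 and 75 of the 112 were higher, and 21 and 29 were at least 1.5-fold higher, with median log2 changes of 0.99 and 0.18. In clone 12, 24 of the 26 and 88 of the 112 were lower, with medians of -0.17 and -0.39. Both groups of genes were chosen with the vector library of clone 6, which the change in clone 6 shares, and the difference between them was not tested.

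Cxcl5, a neutrophil chemokine, and Il1rl1, the interleukin 33 receptor, mark clone 12 in these libraries and were picked after their values were seen. Cxcl5 was at 0.0941 and 0.553 FPKM in clone 6 (vector, then NR6A1) and at 73.0 and 91.9 in clone 12. Il1rl1 was at 1.09 and 1.07 in clone 6 and at 21.1 and 21.99 in clone 12. The clone 6 NR6A1 library thus held Cxcl5 at 0.601% and Il1rl1 at 4.87% of the clone 12 NR6A1 level. With vector these shares were 0.129% and 5.16%. In clone 6 Cxcl5 stood 5.87 times higher with NR6A1, at about 3.8 and 19.2 inferred reads. The 39 antiviral genes ran from 1.37% (Oas2) to 67.3% (Ifit2) of the clone 12 level with NR6A1. Their median was 31.6%, and the lowest after Oas2 was 5.82% (Oas3). With vector they ran from 0% (Oas2) to 54.8% (Ifit2). The difference between these 2 genes and the set was not tested.

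Irf5, an interferon regulatory factor, had the lowest change with NR6A1 in clone 12 among the induction genes, a log2 change of -1.33, and was also picked after its values were seen. It was at 22.6 and 17.4 FPKM in clone 6 and at 15.5 and 5.56 in clone 12.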
